A study of Mus musculus with 12 samples.

Results

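The phagocyte oxidase genes Cybb, Cyba, Ncf1, Ncf4 and Rac2 were examined in a table of open chromatin measured by ATAC-seq, an assay in which a transposase inserts sequencing adapters into accessible DNA. A region of the table was taken as belonging to these genes when it overlapped the body of 1 of them extended by 20000 bp on each side, with gene bodies from the GENCODE M21 basic annotation of GRCm38. Of the 121336 regions, 51 met this rule: 5 at Cybb, 8 at Cyba, 12 at Ncf1, 12 at Ncf4 and 14 at Rac2. The rule used position only and no accessibility value. The member genes were, however, chosen with earlier results of these data known. The regions themselves were peaks called in the groups compared here. Regions are named by gene and by a number that runs from upstream to downstream of the gene, and distances are from the region centre to the transcription start site of that gene (negative is upstream).

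The 12 libraries came from sorted bone marrow cells of untreated mice, 3 per group. LSK are Lin- Sca-1+ c-Kit+ cells, which contain the stem cells and early progenitors, and GMP are Lin- Sca-1- c-Kit+ CD16/32+ granulocyte-monocyte progenitors. Mice of 2 genotypes were used, wild type (WT) and UREd/d, called URE here, in which the upstream regulatory element (URE), an enhancer of the PU.1 gene Spi1, is deleted in the germline and so absent from every cell. Per the study's methods they were littermates on a C57BL/6 background, 8 to 12 weeks old, with 3 mice per genotype and cell type, and the lineage gate also removed Gr1-positive cells. In the window of the deleted element, 3 of the 5 regions held 0 to 6 counts in the URE libraries and 115 to 2110 in the WT libraries. Library totals ranged from 23072701 to 62204826 counts, at which 3 counts corresponded to 0.052 to 0.126 CPM (counts scaled by library total and TMM factor, so that libraries can be set side by side). Libraries of both sexes were present: counts on chromosome Y were 653 to 1684 in replicate 1 of every group and in replicate 3 of the URE groups, and 0 to 9 in the others. Cybb is X-linked, and the share of counts on chromosome X was 1.46% and 1.52% in the WT libraries with chromosome Y counts, 1.62% to 1.68% in the other WT libraries and 1.58% to 1.68% in URE. Its part in the Cybb values was not tested.

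The products of these genes assemble the NADPH oxidase of phagocytes, which transfers electrons across the membrane to oxygen and so makes the superoxide used to kill ingested microbes. Cybb encodes gp91phox, the catalytic subunit, and Cyba encodes p22phox, its partner in the membrane-bound flavocytochrome b558. On activation the cytosolic subunits p47phox (Ncf1) and p40phox (Ncf4) and the small GTPase Rac2 join them. Several of these genes are classical targets of PU.1, an ETS family factor that binds purine-rich sites with the core GGAA.

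The DNA of the regions on which the results turn is shown first. The promoter region of Ncf4, the stretch upstream of it and the intronic region of Cyba were shown because they were among the regions with the steepest falls in URE-LSK and each held the letters GAGGAAGT, used here as a PU.1 motif. Capitals mark that motif on either strand (ACTTCCTC on the other strand). Each stretch is written 5' to 3' on the strand of its gene, from GRCm38. These are chr15:78244584-78244825, plus strand, within Ncf4_4, cut 25 bases into the transcript; chr15:78244008-78244210, plus strand, the whole of Ncf4_3; and chr8:122430340-122430499, minus strand, within Cyba_7.
Ncf4 promoter: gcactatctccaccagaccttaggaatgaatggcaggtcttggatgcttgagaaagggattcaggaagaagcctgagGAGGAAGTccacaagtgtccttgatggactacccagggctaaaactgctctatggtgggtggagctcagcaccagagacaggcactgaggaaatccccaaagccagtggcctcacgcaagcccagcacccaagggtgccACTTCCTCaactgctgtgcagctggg
Ncf4 upstream: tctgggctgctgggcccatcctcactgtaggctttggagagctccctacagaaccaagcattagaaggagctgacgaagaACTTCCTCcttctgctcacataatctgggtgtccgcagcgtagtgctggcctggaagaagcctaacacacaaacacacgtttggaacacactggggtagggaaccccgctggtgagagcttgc
Cyba intron: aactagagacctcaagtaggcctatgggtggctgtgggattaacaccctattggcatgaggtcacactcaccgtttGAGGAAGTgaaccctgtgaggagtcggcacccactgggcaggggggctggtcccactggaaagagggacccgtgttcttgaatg
The second motif of the Ncf4 promoter stretch, in antisense orientation, began at base 217 of it.

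The Rac2 stretch shows the only region of that gene called lower in both cell types. It lay far upstream, at chr15:78589024-78589183 on the minus strand, within Rac2_3. Capitals again mark GAGGAAGT or its complement.
Rac2 upstream: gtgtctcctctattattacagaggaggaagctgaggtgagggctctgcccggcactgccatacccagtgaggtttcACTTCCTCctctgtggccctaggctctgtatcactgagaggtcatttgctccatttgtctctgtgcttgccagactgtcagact

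No region of Cybb that was called lower contained GAGGAAGT. The whole of Cybb_5, an intronic region at chrX:9452437-9452695 on the minus strand, is printed with the shorter core GAGGAA in capitals, since it had the largest fall of all 51 regions in LSK. The Ncf1 stretch comes from the RefSeq promoter table (GRCm38.p6, chr5:134229601-134229875, minus strand, cut 25 bases past the start site), which held 3 of the 5 members (Ncf1, Cyba and Cybb), and is shown because the Ncf1 promoter region also fell steeply while holding neither GAGGAAGT nor GAGGAA.
Cybb intron: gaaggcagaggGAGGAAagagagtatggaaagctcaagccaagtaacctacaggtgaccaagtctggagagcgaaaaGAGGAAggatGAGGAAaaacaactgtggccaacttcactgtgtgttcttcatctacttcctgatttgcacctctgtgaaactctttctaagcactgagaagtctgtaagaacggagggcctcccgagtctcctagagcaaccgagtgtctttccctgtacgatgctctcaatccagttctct
Ncf1 promoter: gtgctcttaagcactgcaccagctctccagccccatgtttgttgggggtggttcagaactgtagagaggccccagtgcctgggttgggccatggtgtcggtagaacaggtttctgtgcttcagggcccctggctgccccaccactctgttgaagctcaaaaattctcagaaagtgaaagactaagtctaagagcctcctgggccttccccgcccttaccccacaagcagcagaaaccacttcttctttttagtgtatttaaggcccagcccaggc
The letters GAGGAAGT or the complement occurred in 6 of the 51 regions (11.76%) and in 10.47% of all 121336, and in 3.202% of the 32851 promoter stretches of the RefSeq table, none of them a member's.

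The question asked of each region was whether accessibility differed between URE and WT within LSK and within GMP. Calls needed an adjusted p under 0.05 (edgeR quasi-likelihood test, Benjamini-Hochberg (BH) adjustment over all 121336 regions) together with a change of more than 1 on the log2 scale in either direction. Because the libraries are bulk samples, fewer cells of a type with the region open and less opening per cell cannot be told apart.

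In LSK, most called losses lay at Cybb and Ncf4, with 1 at the Ncf1 promoter, while the regions that rose lay at Ncf1 and Cyba. Of the 51 regions, 14 were called lower in URE-LSK, against a background of 23.9% of all regions, and 5 were called higher, against a background of 13.6%. The 14 were 4 of 5 regions at Cybb, 1 of 8 at Cyba, 1 of 12 at Ncf1, 5 of 12 at Ncf4 and 3 of 14 at Rac2, and the 5 were 4 at Ncf1 and 1 at Cyba. As a share of the 51, 27.45% were lower, close to the background. The median log2 fold change over the 51 was -0.009, beside 0.137 over all regions, with a range of -4.805 to 2.232. With GC content offsets the split was 13 lower and 11 higher, beside 24718 and 26869 of all 121336 regions, and with loess offsets 14 lower and 9 higher, beside 23008 and 25649.

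In GMP the balance turned to gains. Of the 51 regions, 5 were called lower in URE-GMP (background 24.1%) and 11 higher (background 15.6%), a split of 3 and 12 with GC content offsets, beside 24049 and 26825 of all regions. The 5 lower regions were Cybb_2, Cybb_5, Ncf4_3, Ncf4_10 and Rac2_3, and each of them was also called lower in LSK. Most regions of the whole table did the same: 22748 of the 29185 called lower in GMP were also called lower in LSK. The 11 higher regions were 6 at Ncf1, 2 at Cyba, 2 at Rac2 and 1 at Ncf4. The median log2 fold change was 0.313, beside 0.055 over all regions. None of the 7 member regions that lay at an annotated start site of any gene was called in GMP. They include start sites of the neighbouring genes Mvd, Gm36738 and Sstr3. In LSK, 3 of them were called lower: Ncf1_4, Ncf4_4 and Rac2_13, the last at Sstr3. The shares called among start-site regions of the whole table were not counted.

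**Figure D1:**
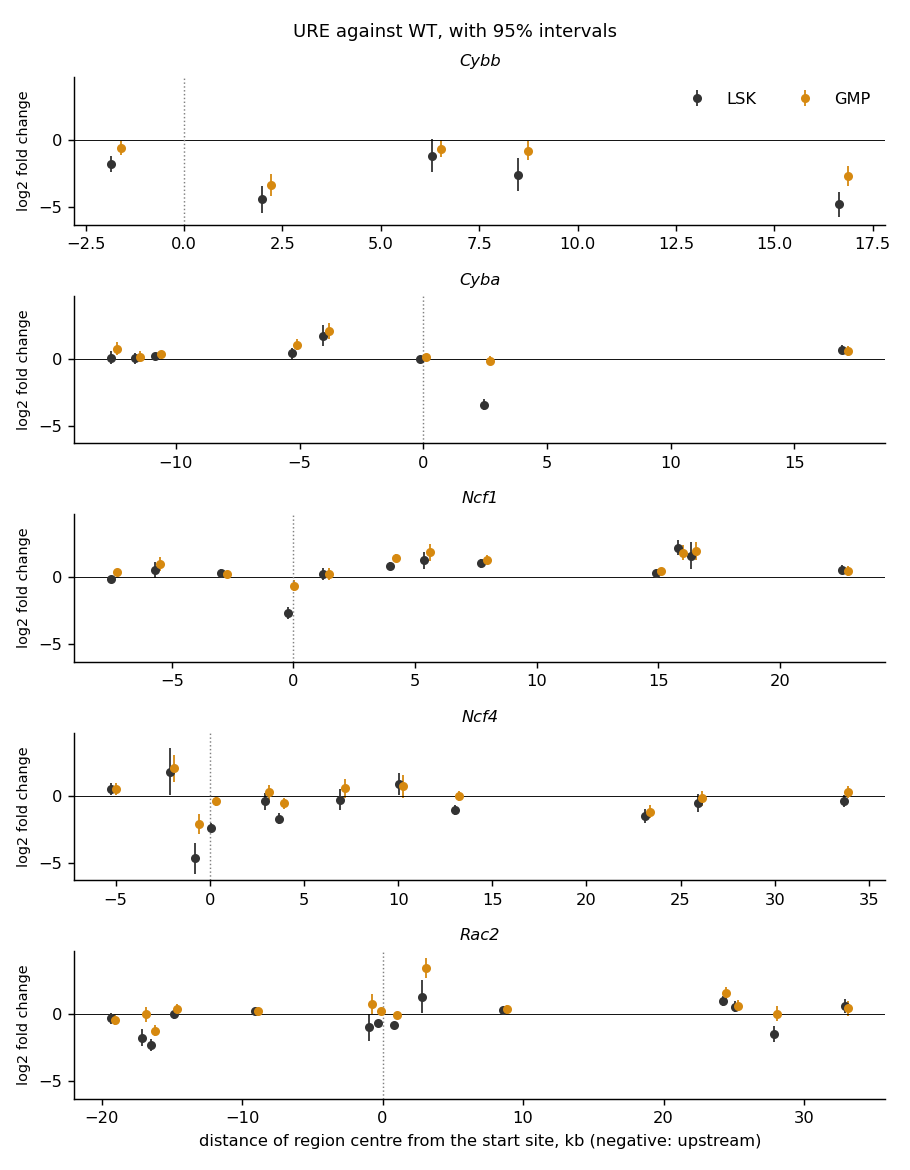
Log2 fold change (y) of URE against WT for each of the 51 regions, in LSK (dark) and GMP (orange), against the distance in kb of the region centre from the start site of its gene (x), 1 panel per gene; bars are 95% intervals of the fit. At Cybb all 5 regions lie below 0 in both cell types, and at Cyba a single region, 2584 bp downstream of the start site, falls in LSK.

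Cybb, the catalytic subunit, had no region within 500 bp of its start site, nor within 1000 bp. Its nearest region was Cybb_1, at -1728 bp (chrX:9470853-9471252). It stood at 4.067, 4.12 and 2.855 CPM in WT-LSK against 0.6424, 1.34 and 1.239 in URE-LSK, without overlap. In WT-GMP it stood at 6.359, 6.966 and 5.37 CPM and in URE-GMP at 3.789, 5.43 and 3.295 CPM, where the groups overlapped. The region was 3.41-fold lower in URE-LSK (log2 fold change -1.77, 95% interval -2.365 to -1.175, adjusted p = 5.507e-05 by edgeR), and was not called in GMP (-0.57, adjusted p = 0.05791).

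The gene record of Cybb in the annotation, which set the window, reaches upstream past the start site used here, so Cybb_1 counts as intronic in it. The other Cybb regions lay downstream of the start site and were low in counts. Cybb_2, in a coding exon 2102 bp downstream (chrX:9467065-9467379), stood at 2.073, 2.937 and 1.488 CPM in WT-LSK against 0.119, 0.05583 and 0.1068 in URE-LSK, the latter from 5, 2 and 5 counts. In WT-GMP it was at 4.183, 2.77 and 2.466 CPM and in URE-GMP at 0.366, 0.399 and 0.1211 CPM. The groups were far apart in both cell types, and the falls were 21.6-fold in LSK and 10.16-fold in GMP (adjusted p = 9.345e-07 and 2.917e-06, edgeR). Cybb_5, 16758 bp downstream and outside the rule for named regions, behaved alike: 2.335, 2.774 and 2.594 CPM in WT-LSK against 0.119, 0.1117 and 0.04272 CPM (5, 4 and 2 counts) in URE-LSK, and 2.259, 2.308 and 2.42 CPM in WT-GMP against 0.3014, 0.5898 and 0.1696 CPM in URE-GMP. It was called lower in both (log2 fold changes -4.81 and -2.66, adjusted p = 1.741e-07 and 8.979e-06, edgeR).

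A different pattern was seen at Cybb_4 and Cybb_3, which opened in GMP. Cybb_4, 8613 bp downstream (chrX:9460468-9460954), was at 1.076, 0.4895 and 0.6033 CPM in WT-LSK against 0.02379, 0.2233 and 0.1282 in URE-LSK, the latter from 1, 8 and 6 counts, but at 6.777, 6.295 and 4.517 CPM in WT-GMP and 2.971, 5.17 and 2.011 CPM in URE-GMP. It was called lower in URE-LSK (5.94-fold, adjusted p = 0.001157, edgeR), where the groups did not overlap, and not in URE-GMP (log2 fold change -0.78, adjusted p = 0.06165), where they did. Without URE-GMP replicate 2 the GMP value of Cybb_4 was -1.23 and called. Cybb_3, also outside the rule, held a PU.1 motif and was not called in either cell type (-1.15 and -0.62), whereas without URE-GMP replicate 2 it was called in both (-1.14 and -1.11). It rose from 0.2741 ± 0.0949 CPM (SD, n = 3) in WT-LSK to 5.133 ± 1.067 CPM in WT-GMP, and from 0.1286 ± 0.07022 to 3.306 ± 1.631 CPM in URE.

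Cyba, the p22phox gene, kept its promoter and lost an intronic region in LSK. Its promoter region, Cyba_6 (chr8:122432265-122433571, at -10 bp), was at 41.72, 39.82 and 39.77 CPM in WT-LSK against 43.54, 39.53 and 37.53 in URE-LSK, and at 50.91, 42.26 and 38.54 CPM in WT-GMP against 47.25, 52.27 and 45.45 in URE-GMP. The groups overlapped in both cell types, and the 95% interval of the log2 fold change was -0.22 to 0.203 in LSK and -0.069 to 0.352 in GMP. This region also contained GAGGAAGT.

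An intronic region of the same gene did the opposite. Cyba_7, intronic and 2584 bp downstream (chr8:122430021-122430628), the source of the Cyba sequence printed above, stood at 17.58, 20.52 and 16.47 CPM in WT-LSK against 1.213, 1.926 and 1.858 in URE-LSK. In GMP it stood at 30.83, 30.65 and 23.72 CPM in WT and at 25.66, 30.25 and 21.47 CPM in URE. All 3 URE-LSK libraries lay far below every other library, and the GMP groups overlapped. The fall was 10.9-fold in LSK (log2 fold change -3.45, adjusted p = 3.001e-09, edgeR) and the value in GMP was -0.14 (adjusted p = 0.4741).

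Upstream of Cyba, in exons of the neighbouring gene Mvd, which encodes an enzyme of sterol synthesis, accessibility rose. Cyba_5 (chr8:122436668-122437034) was at 0.4986, 0.3264 and 0.2212 CPM in WT-LSK against 0.8328, 1.34 and 1.26 in URE-LSK, and at 1.715, 2.707 and 1.291 CPM in WT-GMP and 7.922, 9.628 and 7.293 CPM in URE-GMP. It was called higher in both, by 3.31-fold (adjusted p = 0.0007856, edgeR) and 4.311-fold (adjusted p = 1.081e-05). Cyba_4 (chr8:122437948-122438324) was called higher only in GMP, at 17.96 ± 1.215 CPM in URE against 8.541 ± 2.189 CPM in WT (log2 fold change 1.07). With library size scaling that value was 0.94, under the threshold, and without WT-GMP replicate 1 or 3 it was 0.95. For neither region was the effect called different between GMP and LSK (interaction adjusted p = 0.6449 and 0.1109).

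Ncf1, which encodes the organiser subunit p47phox, lost accessibility at the promoter in LSK and gained it elsewhere. The promoter region Ncf1_4 (chr5:134229398-134230033, at -90 bp) stood at 20.97, 23.46 and 18.8 CPM in WT-LSK against 2.26, 4.773 and 3.097 in URE-LSK. In WT-GMP it stood at 22.05, 21.55 and 21.3 CPM and in URE-GMP at 13.26, 16.41 and 12.11 CPM. The groups did not overlap in either cell type. The fall was 6.266-fold in LSK (log2 fold change -2.65, adjusted p = 4.49e-08, edgeR) and 1.551-fold in GMP (-0.63, adjusted p = 0.008983), the latter past the p threshold but not the fold threshold. The 3 WT-GMP values lay within the range of the WT-LSK values, whereas in URE the promoter was 4.153-fold higher in GMP than in LSK (adjusted p = 3.08e-07, edgeR).

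Apart from Ncf1_2, the regions of Ncf1 that rose lay within its own body and within the downstream gene Gtf2ird2, a general transcription factor II-I family gene. Ncf1_6 (chr5:134224966-134226104, over a coding exon 4090 bp downstream) was at 16.85, 14.89 and 17.29 CPM in WT-LSK against 28.12, 27.91 and 32.92 in URE-LSK, and at 13.05, 13.24 and 17.77 CPM in WT-GMP against 38.23, 37.54 and 44.75 in URE-GMP. It was called higher in GMP (2.727-fold, adjusted p = 2.397e-07, edgeR) and fell short of the fold threshold in LSK (1.811-fold, adjusted p = 2.717e-05). Every URE library exceeded every WT library in this region.

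Ncf1_8 (chr5:134221354-134222199), near the end of the gene and also inside Gtf2ird2, was at 5.694, 6.241 and 6.455 CPM in WT-LSK against 15.04, 11.92 and 11.56 in URE-LSK, and at 5.648, 4.196 and 4.633 CPM in WT-GMP and 12.08, 13.17 and 10.83 CPM in URE-GMP. It was called higher in both (2.093-fold and 2.509-fold, adjusted p = 3.648e-05 and 5.251e-06, edgeR), although the LSK value was under the fold threshold with library size scaling (log2 fold change 0.94), without WT-LSK replicate 1 (0.95) and without URE-LSK replicate 1 (0.94). Ncf1_10, an intronic region of Gtf2ird2 (chr5:134213587-134213821), was at 0.9447, 0.8159 and 0.8244 CPM in WT-LSK against 4.687, 3.461 and 4.037 in URE-LSK, and at 1.046, 0.6714 and 0.5762 CPM in WT-GMP and 3.207, 2.099 and 2.714 CPM in URE-GMP. It was 4.697-fold higher in LSK and 3.602-fold higher in GMP (adjusted p = 2.209e-06 and 2.089e-05). Upstream of the gene, Ncf1_2 was called higher in GMP only (8.974 ± 1.159 CPM in URE against 4.498 ± 1.707 in WT, log2 fold change 1.01), a call lost without WT-GMP replicate 3 (0.73) or URE-GMP replicate 2 (0.91). The remaining called regions, Ncf1_7 and Ncf1_11, named after their values were seen, were higher in both cell types by 1.26 to 1.998 on the log2 scale.

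**Figure D2:**
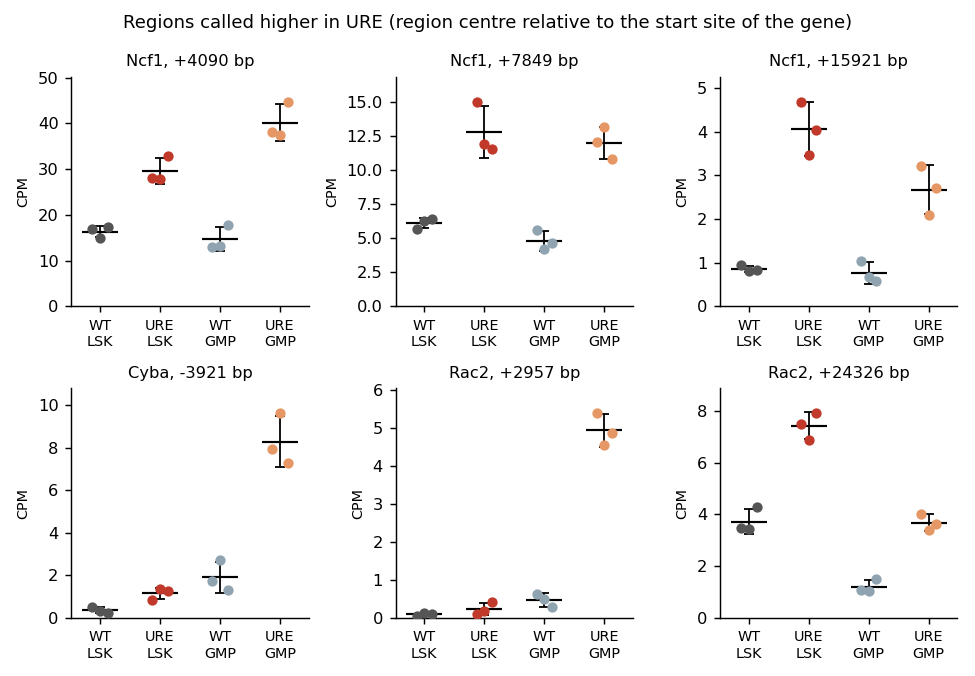
CPM (y, from 0) in each of the 12 libraries for 6 regions called higher in URE in at least 1 cell type, with group means and SD (n = 3). In all but the Rac2 region 2957 bp downstream of its start site, the 3 URE libraries lie above the 3 WT libraries in both cell types.

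Ncf4, the p40phox gene, had the most regions called lower. Its promoter region Ncf4_4 (chr15:78244549-78245411) contained GAGGAAGT 3 times and stood at 21.1, 26.27 and 18.4 CPM in WT-LSK against 3.426, 4.773 and 4.464 in URE-LSK. In WT-GMP it stood at 39.41, 45.8 and 37.87 CPM and in URE-GMP at 30.8, 37.47 and 24.86 CPM. No groups overlapped within a cell type. The fall was 5.179-fold in LSK (log2 fold change -2.37, adjusted p = 2.486e-08, edgeR) and 1.321-fold in GMP (-0.40, adjusted p = 0.03624). 

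The small region just upstream of this promoter was among the most reduced. Ncf4_3, at -692 bp and named after its values were seen, was at 1.365, 1.673 and 1.468 CPM in WT-LSK against 0.04759, 0.02791 and 0.08544 in URE-LSK, from 2, 1 and 4 counts. In WT-GMP it was at 3.556, 2.895 and 2.351 CPM and in URE-GMP at 0.7104, 1.024 and 0.2423 CPM. The log2 fold changes were -4.67 in LSK (95% interval -5.82 to -3.518) and -2.11 in GMP, both called lower.

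Inside the gene, Ncf4_9 (chr15:78257199-78258671, intronic) opened strongly between LSK and GMP. It was at 16.37, 19.58 and 16.37 CPM in WT-LSK against 5.877, 7.899 and 11.11 in URE-LSK, and at 87.69, 65.4 and 60.92 CPM in WT-GMP and 71.1, 79.56 and 63.26 CPM in URE-GMP. The LSK groups did not overlap and the GMP groups did. It was 2.09-fold lower in URE-LSK (adjusted p = 0.0001468, edgeR), a call that ended with GC content offsets (log2 fold change -0.79) and without URE-LSK replicate 1 (-0.87), and in GMP the 95% interval was -0.364 to 0.368.

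Ncf4_6, also intronic (chr15:78248424-78248807), was at 8.303 ± 1.584 CPM in WT-LSK against 2.55 ± 0.3444 in URE-LSK (3.264-fold lower, adjusted p = 3.416e-06, edgeR), and at 11.39 ± 0.8923 and 7.722 ± 1.827 CPM in WT-GMP and URE-GMP (log2 fold change -0.56, not called). Ncf4_10, 23252 bp downstream of the start site and past the end of the gene (chr15:78267862-78268245), was called lower in both cell types, at 7.806 ± 0.8134 CPM (WT) against 2.743 ± 0.8566 (URE) in LSK and 8.552 ± 2.085 (WT) against 3.764 ± 0.2588 (URE) in GMP. The GMP call of Ncf4_10 was lost with GC content offsets (log2 fold change -0.72) and without WT-GMP replicate 3 (-0.96). The only Ncf4 region called higher was Ncf4_2, named after its values were seen, in GMP (log2 fold change 2.06).

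Rac2, the haematopoietic small GTPase that activates the complex, had a promoter whose changes stayed under the fold threshold. Rac2_7 (chr15:78572571-78573381, at -193 bp) was at 29.39, 29.25 and 30.83 CPM in WT-LSK against 19.92, 19.06 and 17.58 in URE-LSK, and at 29.54, 29.84 and 25.68 CPM in WT-GMP and 34.83, 33.74 and 33.19 CPM in URE-GMP. The groups were apart in both cell types and in opposite directions. The values, a log2 fold change of -0.66 in LSK (adjusted p = 1.058e-05, edgeR) and 0.26 in GMP (adjusted p = 0.01795), did not reach the fold threshold, and neither did their difference of 0.92 (adjusted p = 0.0001957). That difference passed it at a mean CPM of at least 2 (1.003) and without WT-GMP replicate 2 (1.03).

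Distal regions of Rac2 carried the calls. Rac2_3, at -16344 bp (chr15:78588821-78589433), was at 16.61, 22.97 and 15.46 CPM in WT-LSK against 3.331, 4.382 and 3.503 in URE-LSK, and at 19.7, 24.57 and 25.7 CPM in WT-GMP and 10.42, 12.58 and 7.147 CPM in URE-GMP. It was lower without overlap in both, by 4.9-fold (adjusted p = 2.229e-07, edgeR) and 2.319-fold (adjusted p = 7.804e-05), and GC content offsets took the GMP value under the fold threshold (log2 fold change -0.80). Its neighbour Rac2_2 (chr15:78589643-78589861) was called lower in LSK only, at 0.3741 ± 0.1393 CPM in URE against 1.292 ± 0.2841 in WT, and was at 2.661 ± 0.5058 against 2.683 ± 0.3158 CPM in GMP, in the same order. The third region of Rac2 called lower in LSK, Rac2_13, named after its values were seen, overlapped the start site of the somatostatin receptor gene Sstr3 and was at 0.7039 ± 0.09704 CPM in URE against 1.989 ± 0.1147 in WT.

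Gains at Rac2 were called in GMP. Rac2_9, intronic (chr15:78569670-78569982), was at 0.05248, 0.1224 and 0.1005 CPM in WT-LSK against 0.09517, 0.1675 and 0.4058 in URE-LSK, and at 0.6275, 0.4826 and 0.2766 CPM in WT-GMP against 5.382, 4.545 and 4.846 in URE-GMP. The URE-GMP libraries stood out, 10.98-fold above WT-GMP (adjusted p = 1.142e-06, edgeR), while in LSK the region was not called but became so with GC content offsets (log2 fold change 1.77), loess offsets (1.85), DESeq2 (1.40) and without URE-LSK replicate 1 (1.70). Rac2_11, 24326 bp downstream (chr15:78548250-78548664), was at 3.687 ± 0.3159 CPM in URE-GMP and 1.205 ± 0.2559 CPM in WT-GMP (3.036-fold, adjusted p = 6.026e-06), and at 7.438 ± 0.5173 and 3.725 ± 0.4841 CPM in LSK, where the log2 fold change of 0.99 lay just under the threshold and passed it with RLE size factors (1.04), loess offsets (1.19), GC content offsets (1.17), DESeq2 (1.04), the replicate block (1.001), without WT-LSK replicate 3 (1.05) and without URE-LSK replicate 2 (1.04).

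**Figure D3:**
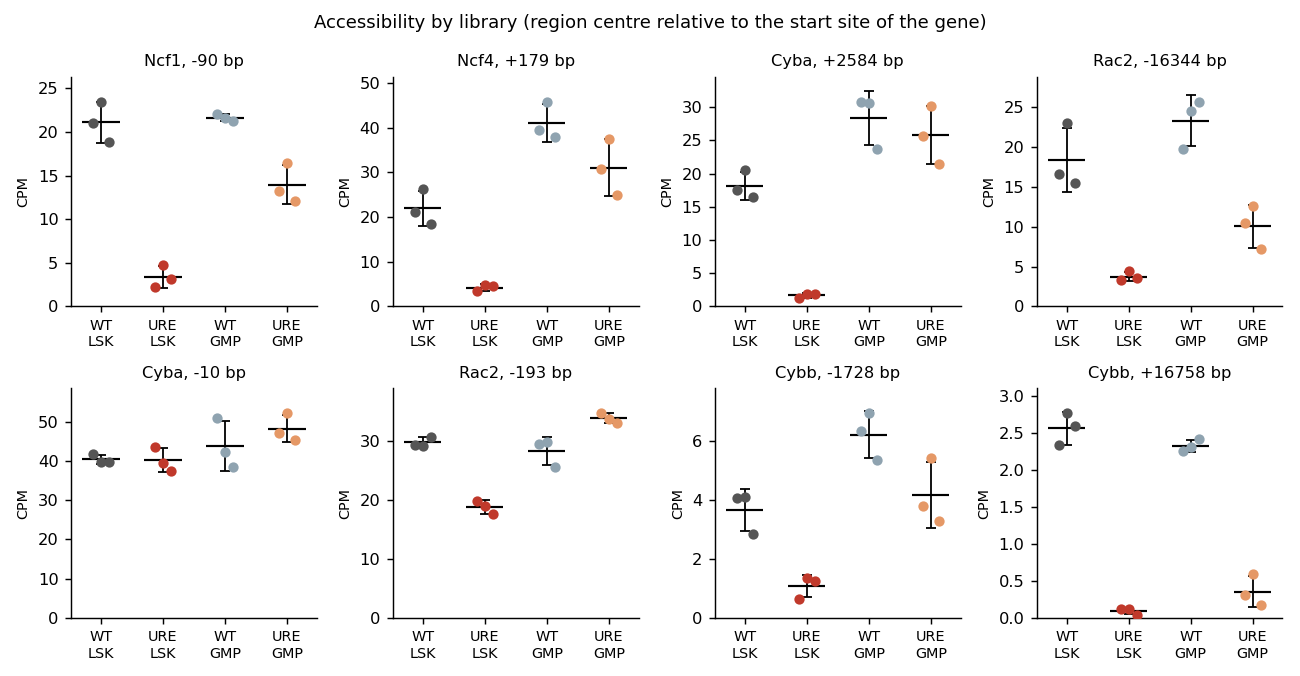
CPM (y, from 0) in each of the 12 libraries for 8 regions, titled by gene and distance of the region centre from the start site in bp; horizontal lines are group means and bars SD (n = 3). In the Ncf1, Ncf4 and Cyba (+2584 bp) panels the URE-LSK libraries are the lowest and the URE-GMP libraries are closer to WT-GMP; the Cyba promoter (-10 bp) panel is level across groups.

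Whether the effect of the deletion differed between the cell types was tested as an interaction: the log2 fold change of URE against WT in GMP less the same value in LSK. Of the 51 regions, 11 were called positive (background 8.96%) and 0 negative (background 5.03%), with a median of 0.522 beside 0.011 over all regions, and 43 of the 51 values were positive. At an adjusted p under 0.05 with no fold threshold, 14 were past the test and all 14 were positive. Over all 121336 regions, 12405 positive and 8015 negative values were past it. DESeq2 also called 14, none of them negative, beside 12151 positive and 6700 negative of all regions. Without URE-GMP replicate 2 the count of positive calls was 5, with Cybb_1, Cybb_5, Ncf4_3, Ncf4_6, Ncf4_9 and Rac2_3 no longer called. The 11 were Cyba_7 (3.31, adjusted p = 2.947e-06, edgeR), Ncf4_3, Cybb_5, Ncf1_4 (2.02), Ncf4_4 (1.97), Rac2_2, Rac2_13, Cybb_1, Ncf4_6, Rac2_3 and Ncf4_9, and all 11 were also called lower in LSK, a comparison that uses the same LSK libraries.

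By call, 9 of the 51 regions (17.65%) were lower in LSK and not called in GMP, a class that held 5.11% of all regions, whereas 5 (9.804%) were lower in both, a class that held 18.75% of all regions. A further 5 were higher in both, 6 were higher in GMP only by call and 26 were called in neither, shares of 9.804%, 11.76% and 50.98% beside 8.45%, 7.116% and 50.14% of all regions. No region was called in opposite directions. Over all regions, gains in GMP were also rare among those lower in LSK. Of these 29035, 22748 were lower in GMP and 6200 were not called there.

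**Figure D4:**
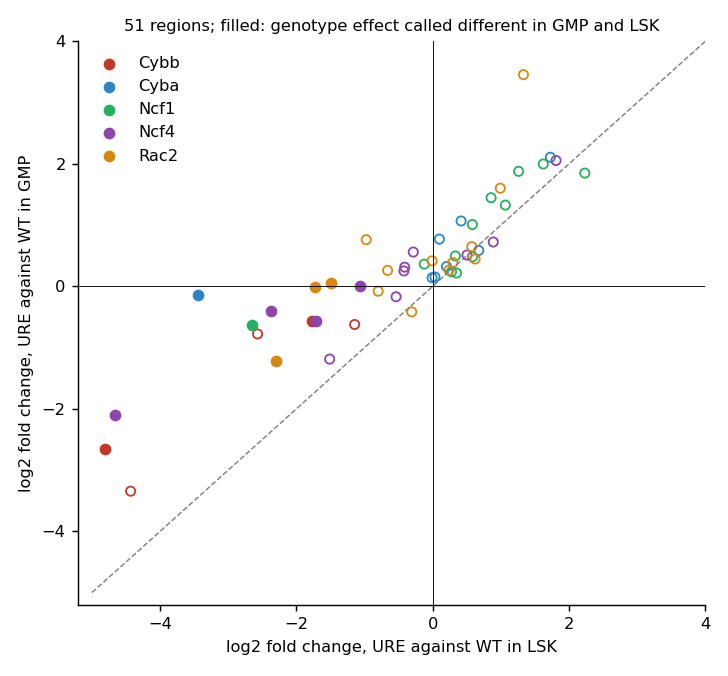
Log2 fold change of URE against WT in GMP (y) against that in LSK (x) for the 51 regions, coloured by gene; filled points are the 11 regions with a called interaction and the dashed line marks equal values. Points left of the vertical axis lie mostly above the line, with smaller falls in GMP than in LSK.

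The regions of each gene were also followed from LSK to GMP within a genotype. In WT, 14 of the 51 regions were higher in GMP than in LSK (background 21%) and 5 lower (background 16.8%). In URE, 29 were higher (background 27.6%) and 4 lower (background 21.6%), among them all 5 regions of Cybb and 9 of the 12 of Ncf4. Both steps and both genotype comparisons share libraries and 1 model, and are not independent. Among the 5 of Cybb, the URE step of Cybb_2 lost its call without URE-LSK replicate 2 (adjusted p = 0.05473, edgeR) or URE-GMP replicate 2 (0.07168). The median step was 0.354 in WT and 1.083 in URE, beside -0.006 and 0.028 over all regions.

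Single regions show the size of these steps. At Ncf4_4, GMP were 7.368-fold above LSK in URE (adjusted p = 5.215e-09, edgeR) and 1.879-fold in WT. At Cyba_7 the step was 15.5-fold in URE (adjusted p = 1.752e-09) and 1.563-fold in WT. At Cybb_4 it was called in both genotypes, 27.47-fold in URE and 7.933-fold in WT.

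Summed over its regions, Cybb had 7.923 to 10.52 CPM in WT-LSK against 0.9517 to 1.898 in URE-LSK, and 18.69 to 25.14 CPM in WT-GMP and 7.874 to 16.78 CPM in URE-GMP. The URE sum was 0.1607 times the WT sum in LSK and 0.5071 times in GMP, with no overlap in either. For Ncf4 the sums were 66.34 to 78.53 and 26.24 to 37.7 CPM in LSK (ratio 0.4539, no overlap) and 154.3 to 175.3 and 138.3 to 173.9 CPM in GMP (ratio 0.9411, overlapping). For the other genes the ratios in LSK and GMP were 0.9738 and 1.227 at Cyba, 1.155 and 1.358 at Ncf1 and 0.8455 and 1.069 at Rac2. These sums include regions of neighbouring genes, and falls at single regions can be hidden in them. At Cyba, the Mvd promoter region Cyba_3 made up 44.42 of the mean 125.6 CPM in WT-LSK. The Ncf1 sum includes regions within Gtf2ird2.

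**Figure D5:**
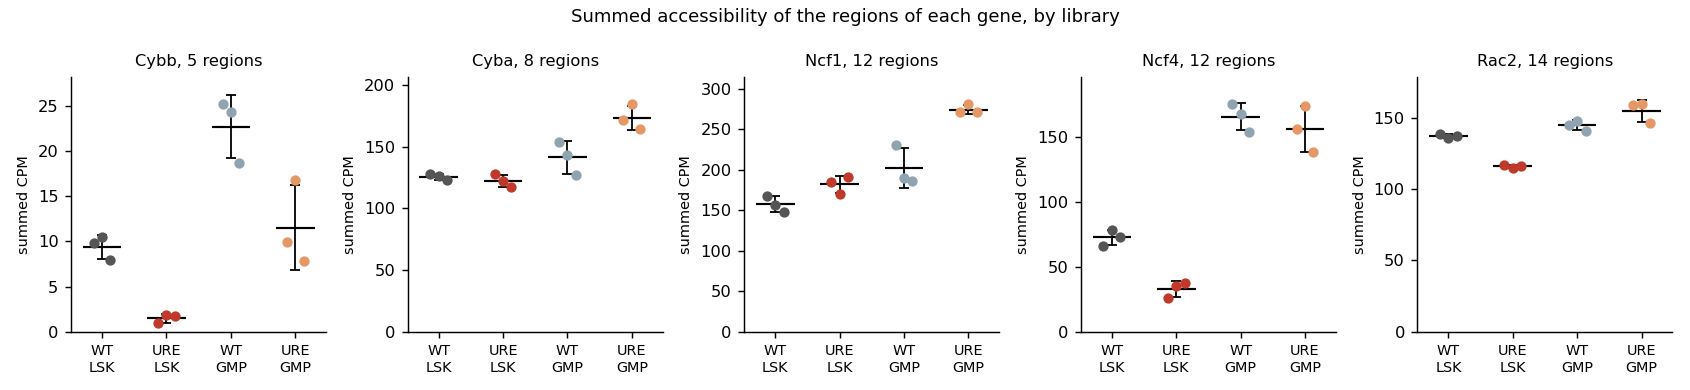
Summed CPM (y, from 0) over the regions of each gene in the 12 libraries, 1 panel per gene, with group means and SD (n = 3). The Cybb and Ncf4 sums of URE-LSK lie well below those of WT-LSK, and the Ncf1 sums of URE lie above those of WT in both cell types.

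The GMP libraries of the genotypes also differed in the accessibility of lineage marker promoters, which touches the GMP values above. Summed over the promoter regions of 8 neutrophil genes (8 of 8 with a region), CPM ranged from 157.6 upwards in WT-GMP, all under the 285.9 to 296.2 of URE-GMP, and 3 of the 8 were called higher. For 6 monocyte genes the sums were 83.18 to 103.7 in WT-GMP and 58.56 to 73.09 in URE-GMP, with 2 of 6 called lower. In LSK the neutrophil sums were 35.12 to 40.4 (WT) and 20.84 to 36.85 (URE), with 2 of the 8 called higher and 1 lower. The monocyte sums were 49.85 to 60.51 and 44.69 to 48.23 (3 of 6 called lower). Sums for 5 stem cell genes were 226.4 to 232.4 and 244.8 to 274.8, above the 179.6 to 201.6 CPM of the GMP groups. For the 3 of 6 erythroid and megakaryocyte genes with a promoter region, the sums were 45.16 to 60.63 in WT-LSK against 64.83 to 66.65 in URE-LSK (1 called lower), and 25.01 to 41.46 in WT-GMP against 14.8 to 23.99 in URE-GMP (2 called lower). The B cell genes Pax5 and Cd79a had no promoter region in the table. The part of these differences in the oxidase gene values was not tested.

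Among the 6 regions with GAGGAAGT, 4 were called lower in LSK and 2 in GMP, and none was called higher. Over all regions with these letters, 51.9% were called lower in LSK and 47.22% in GMP. The 6 were Cyba_6, Cyba_7, Cybb_3, Ncf4_3, Ncf4_4 and Rac2_3, of which Cyba_6 and Cybb_3 were not called. The shorter GAGGAA, which the longer motif contains, was present in 30 of the 51 regions (58.82%, beside 46.9% of all) and in 11 of the 14 called lower in LSK; of all regions with GAGGAA, 33.74% were called lower in LSK. The C/EBP motif TTGCNNAA was present in 12 of the 51 (23.53%, beside 20.46%), of which GMP had 5 called higher and 0 lower (23.74% and 17.95% of all regions with it) and LSK 4 each (16.1% and 20.72%), the RUNX motif AACCACA in 12 (beside 17.32%) and the ETS motif CCGGAAGT in 1 (beside 1.877%). A match is a description of letters, searched on both strands.

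The promoters whose pattern over the 12 libraries was most like each member's were looked up among 14043 promoter regions of other protein-coding genes, by Pearson correlation of log2 CPM. The 12 libraries form 4 groups, so these correlations mostly compare 4 levels, and they are given as a description. For Ncf1 they were Spi1 (r = 0.9917), the PU.1 gene itself, and Alox5ap (r = 0.9915), which encodes the 5-lipoxygenase activating protein. For Ncf4 they were Cass4 (0.9927) and Slc15a3 (0.9907), for Rac2 Fes (0.9512) and Tctex1d2 (0.9382), and for Cyba Nfkb2 (0.974) and Mia3 (0.9586). The Spi1 promoter region stood at mean levels of 35.19 CPM in WT-LSK against 5.643 in URE-LSK, and of 35.68 and 24.87 CPM in the GMP groups of WT and URE.

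Of the other genes of the pathway, the promoter of Rac1, the ubiquitous relative of Rac2, was 1.235-fold higher in LSK and 1.254-fold in GMP, under the fold threshold. Promoters of the proton channel gene Hvcn1 and of Cybc1, needed to make gp91phox, were not called in either cell type.

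Over the 20 listed pathway genes, 307 regions were counted. In LSK 85 of them (27.69%) were called lower and 41 (13.36%) higher, and in GMP 78 (25.41%) lower and 55 (17.92%) higher, shares near the backgrounds given above. Among them, Pik3r5, a regulatory subunit of phosphoinositide 3-kinase gamma, had 11 of 17 regions lower in LSK and 14 of 17 in GMP. The interaction was called positive in 37 and negative in 16 of the 307.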

How the data were processed

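ATAC-seq libraries of LSK and GMP from WT and URE mice, 3 per group, were grouped by GEO's labels. The authors deposited raw counts per region and library. Per the study's methods, bowtie2 had mapped the reads to GRCm38, duplicate reads and reads off the primary chromosomes were discarded, and Genrich had called the peaks of each group. The labels also list cutadapt, bedtools and featureCounts. What was counted, fragments or read ends, is not given in the sources used here. Region starts were taken as counted from 0 in the deposited table and are given counted from 1. Peaks called per group and merged cover weak regions of 1 group, at which the other groups have few counts.

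The analysis used edgeR 4.0.16 and limma 3.58.1 under R 4.3.3. The filter filterByExpr removed none of the 121336 regions. All 12 libraries entered 1 quasi-likelihood model with TMM scaling and a coefficient for each group. The spread was estimated for each region from all groups together. Its common value over all regions was a biological coefficient of variation of 0.185. BH adjustment covered all regions. A call needed an adjusted p under 0.05 and an absolute log2 fold change over 1, as in the study's methods. On simulated counts the test was checked to recover known changes. That simulation gave all regions the common spread and changed 200 of them in URE-LSK. With so few changed, it could not test the scaling. CPM are counts scaled by library total and TMM factor, given per library or as mean ± SD of 3. Intervals are 95% intervals of the fit and include the estimated spread between libraries. Totals of 23072701 to 62204826 set the depth.

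Named regions were the promoter region of each gene (the most counts within 500 bp of a start site), the 3 other called regions of each gene with the most counts, the 2 smallest interaction p and the 2 called-higher regions with the smallest p in each cell type; others were named after their values were seen. The members and lists were chosen with earlier results of these data known. Alternatives were DESeq2 1.42.0, other scalings, filters and thresholds, other windows, autosomes only, chromosome X scaling for Cybb, a replicate block and leaving out each library.

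Deviations from group means of same-numbered LSK and GMP libraries of WT mice correlated at 0.167, 0.166 and 0.184 for replicates 1, 2 and 3, over 0.1 in every pair, as pairing requires. The labels do not say that these came from the same mouse. In the other pairs of groups, not every correlation was over 0.1.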

Additional observations from a re-analysis of the deposited data

Results flagged for a closer look

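The genotype effect differed between GMP and LSK, by the interaction test across all regions (edgeR, BH adjustment), at 11 of the 51 regions, and these differences flagged them. Each value is the log2 fold change of URE against WT in GMP minus that in LSK, and all are positive. It was 3.31 at Cyba_7 (adjusted p = 2.947e-06), 2.56 at Ncf4_3, 2.14 at Cybb_5, 2.02 at Ncf1_4 (adjusted p = 0.0002205), 1.97 at Ncf4_4 (adjusted p = 7.023e-05), 1.73 at Rac2_2, 1.55 at Rac2_13, 1.196 at Cybb_1, 1.15 at Ncf4_6, 1.08 at Rac2_3 and 1.07 at Ncf4_9.

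Calls at Cyba_7, Ncf1_4, Ncf4_4, Rac2_2 and Rac2_13 were kept whichever library was left out. Cybb_1 lost its call without any 1 of 6 libraries (adjusted p up to 0.1026) and with chromosome X scaling, and Ncf4_3 lost it without URE-LSK replicate 1 or 2 or URE-GMP replicate 2, which held 2, 1 and 59 counts there. Without URE-GMP replicate 2 the calls at Cybb_5, Ncf4_6, Rac2_3 and Ncf4_9 were also lost. Single other libraries ended the calls at Cybb_5 (1.77 without URE-LSK replicate 3), Rac2_3 (0.93 without WT-LSK replicate 2 and 0.99 without WT-GMP replicate 1) and Ncf4_9 (0.87 without URE-LSK replicate 1), and GC content offsets ended that at Ncf4_9 (0.99).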

How the results depend on the processing

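Counts of called regions among the 51 were within 1.5 times the main count under most alternatives. With no fold change threshold they were 31 in LSK and 31 in GMP, and with a mean CPM of at least 2, which drops weak regions, 11 in LSK, 7 in GMP, 12 for the WT step and 19 for the URE step. With gene bodies only they were 11, 6, 6, 17 and, for the interaction, 7, and within 50 kb of the gene 36, 30, 32, 52 and 18, as these windows hold fewer or more regions. The interaction count was 5 at an adjusted p under 0.01 and 3 with glmTreat. Leaving out 1 library gave 18 to 22 calls in LSK, 13 to 17 in GMP, 17 to 19 for the WT step, 29 to 33 for the URE step and 5 to 13 for the interaction, where 5 came without URE-GMP replicate 2. DESeq2 gave 14 lower and 8 higher in LSK. With the replicate block the counts were 20, 16, 19, 33 and 12, no count moved by over 1.5 times, and no call of the WT step described in the text changed; among the named regions the block changed the call of Rac2_11 in LSK (1.001, now called).

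Of the regions called higher, Cyba_4 in GMP, Ncf1_8 in LSK and Ncf1_2 in GMP also fell under the fold threshold with TMM on promoter regions (0.90, 0.887 and 0.858) and at a mean CPM of at least 2 (0.996, 0.919 and 0.944). Values that changed sign were not called in any case. In LSK, Cyba_6 was 0.037 with RLE size factors and with DESeq2, and between -0.083 and 0.039 over the fits that left out 1 library. In GMP, Cyba_6 was -0.008 with TMM on promoter regions and -0.043 with loess offsets, and Cyba_7 was 0.09 with GC content offsets and 0.088 with these and the replicate block. Ncf4_9 in GMP was -0.113 with library size only, -0.143 with TMM on promoter regions, -0.177 with loess offsets, -0.059 at a mean CPM of at least 2, -0.001 with the replicate block and -0.084 to 0.136 when 1 library was left out. Rac2_2 in GMP was 0.044 with RLE size factors and DESeq2, 0.383 with loess offsets, 0.175 with GC content offsets, 0.171 with these and the replicate block and -0.146 to 0.126 when 1 library was left out. Rac2_13 in GMP was -0.078, -0.127, -0.096 and -0.048 with library size only, TMM on promoter regions, GC content offsets, and these with the replicate block, and -0.214 to 0.35 when 1 library was left out. The cause was not tested.

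Taking start sites within 1000 bp changed the promoter region of Ncf1 only, to Ncf1_5, which was not called in LSK or GMP. Depth limits the LSK falls at Cybb_2, Cybb_4, Cybb_5 and Ncf4_3, which rest on 1 to 8 counts per URE-LSK library.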
